A study of Mus musculus with 36 samples.

Results

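The genes described here are those of the cytoplasmic ribosome whose Gencode symbol starts with Rpl or Rps and a number, together with the pseudogenes named after them. The symbol rule took 357 of the 54115 annotated genes, and no measured value entered it. Of these, 79 were annotated as coding genes, 272 carried a -ps suffix (named pseudogenes, 6 of them annotated as protein coding), and 6 were pseudogenes with a plain symbol such as Rps4l. Rpl genes encode proteins of the large ribosomal subunit and Rps genes those of the small subunit, which together with ribosomal RNA make the particle that translates every messenger RNA. Their messenger RNAs are short and abundant and are translated together according to nutrient and growth signals, through a run of pyrimidines at their start. Because these messenger RNAs are so abundant in the germ line, reverse-transcribed copies without introns have accumulated across mammalian genomes as processed pseudogenes, many of which differ from the parent by a handful of bases.

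RNA-seq was read in 36 libraries of mice or cells that lack both macroH2A histone variant genes, H2afy and H2afy2 (dKO), and of macroH2A wild type (WT). All tumour mice of both genotypes carried melanoma alleles that include BrafCA and Tyr-CreERT2, in which Cre acts in melanocytes after 4-hydroxytamoxifen was put on the skin, whereas the macroH2A deletion was present in all cells of dKO mice. Tumours were taken 50 days after induction, and the age of each mouse is not in the labels. The paper predicts a mixed, mostly 129S background for the WT and dKO tumour mice, with the remainder from B6 and FVB. No strain is given here for the iDF lines. Strain variants that differ between the genotypes and the loss of macroH2A cannot be told apart. Bulk melanomas came from 6 dKO mice (1 female, 5 male) and 6 WT mice (4 female, 2 male), in 3 labelled batches that each held 2 tumours of either genotype. Tumour-infiltrating CD8+ T cells and cancer-associated fibroblasts (CAFs, sorted on CD140a) came from 4 dKO and 4 WT mice each, with 2 females and 2 males per group. Immortalized dermal fibroblasts (iDFs), male lines grown from dKO and WT skin, were starved of serum and sampled at 0 min or after 30 min of serum, with 2 replicates per genotype and time. Nothing states that these replicates are separate lines, so iDF p-values measure the spread between these samples alone. The CD8+ T cell libraries came from a low-input kit without strand information, so cell type and library kit cannot be told apart.

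Reads assigned to genes numbered 17526681 to 85432438 per library. Levels of 1 gene across libraries are given in CPM (reads relative to library size, scaled by TMM factors), and levels of different genes are compared in TPM, which takes transcript length into account. Of the 357 members, 141 passed the filter on low counts in at least 1 genotype comparison, among them 78 coding genes and 59 named pseudogenes. A gene was called when its Benjamini-Hochberg adjusted p in edgeR's quasi-likelihood test was under 0.05 and its log2 fold change was beyond 0.75 in either direction. H2afy was at 61.2 to 82.4 CPM in bulk dKO tumours, against 90.5 to 122 CPM in WT tumours, so reads of this gene were still present in the dKO libraries. In T cells it was at 72.1 to 93.9 CPM in dKO and 72.8 to 96.5 CPM in WT, and H2afy2 was at 0.41 CPM or less in both, so these totals do not tell the T cell genotypes apart. The 10 fibroblast markers summed to 100142 to 127456 CPM in dKO CAFs and to 82786 to 102774 CPM in WT CAFs, and the 10 CD8+ T cell markers to 6295 to 7554 CPM in dKO T cells and to 6955 to 10928 CPM in WT T cells. Fibroblast markers also reached 89.1, 787, 2882 and 1858 CPM in the dKO T cell libraries, against 1495, 2.34, 479 and 855 CPM in WT, and their part in the T cell results was not tested.

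Coding ribosomal protein genes were high in each cell type, whereas 139 of the 272 named pseudogenes in bulk tumours, 167 in T cells, 154 in CAFs and 151 in iDFs had a median of 0. The median level over the 79 coding genes was 821 TPM in bulk tumours, 376 TPM in CD8+ T cells, 740 TPM in CAFs and 901 TPM in iDFs. Rpl10l, a germ-line retrocopy of Rpl10, was the 1 coding gene that did not reach 10 reads in any library. Among the most abundant were Rpl41, which encodes a very short peptide of the large subunit, with a median of 2356 TPM over the 36 libraries, Rps12 (1641 TPM), Rpl7 (1574 TPM) and Rpl23a (1508 TPM). Of the 272 named pseudogenes, 24 were at 0 in every library, 126 reached 10 reads in at least 1 library, and 43 in bulk tumours, 39 in T cells, 50 in CAFs and 45 in iDFs had a median of at least 1 TPM. Rpl34-ps1 was the highest of them, with a median of 1504 TPM, and was followed by Rpl28-ps1 (727 TPM), Rpl36a-ps2 (611 TPM), Rpl30-ps10 (602 TPM) and Rpl3-ps1 (395 TPM).

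The order of levels was not the same in each cell type. Rpl41 had medians of 2776 TPM in bulk tumours, 1299 TPM in T cells, 2307 TPM in CAFs and 2381 TPM in iDFs. Rps12 was at 313 TPM in T cells and at 1098 to 2112 TPM elsewhere. Among the pseudogenes, Rpl34-ps1 was at 1680 TPM in bulk tumours, 750.0 TPM in T cells, 1019 TPM in CAFs and 1655 TPM in iDFs. Rpl36a-ps2 and Rpl30-ps10 had a median of 0 in the T cell libraries, beside 542 to 863 TPM and 605 to 777 TPM elsewhere. Rpl28-ps1 overlaps Zranb3 on the other strand and Rpl36a-ps2 overlaps Ddah1 on the same strand.

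Which pseudogenes received reads went with how much of their sequence they shared. Each transcript was cut into windows of 75 bases, the length of the reads, and a window was counted as shared when a transcript of another gene held the same letters on the same strand. The named pseudogenes had a median identity of 96.7% to their parent over 271 alignments, and 15 of them had no substitution at all. Of the 81 pseudogenes without a shared window, 9 (11.1%) reached 10 reads in a library, compared with 103 of 175 (58.9%) where some windows were shared and 14 of 16 (87.5%) where all were. These shares describe annotation and reads together, and a read from a shared window can be placed only by the estimate that Salmon makes. Of the 14 pseudogenes with a median of at least 100 TPM, 13 had a shared window. The exception was Rps15a-ps8, singled out after its values were seen, which aligned to Rps15a at 92.2% identity with no shared window in 313 and had medians of 360.0 TPM in bulk tumours, 96.0 TPM in T cells, 152 TPM in CAFs and 220.0 TPM in iDFs. Sharing also reached the coding genes, since 76 of 79 had at least 1 shared window, with a median of 15.9% of their windows.

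**Figure D1:**
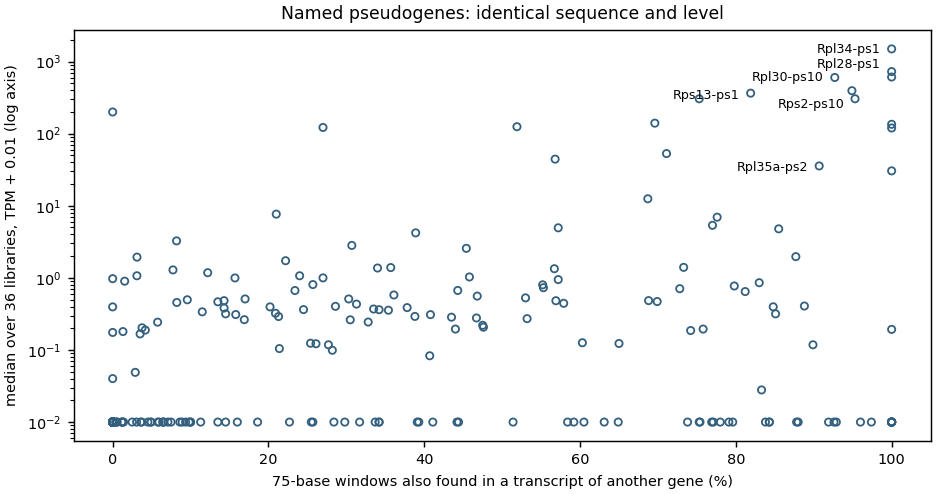
Median level of each named pseudogene over the 36 libraries (TPM plus 0.01, log axis) against the percentage of its 75-base windows that also occur in a transcript of another gene; each circle is 1 of 272 pseudogenes. The highest circle is Rpl34-ps1 at 1504 TPM, with all of its windows shared, and many circles lie at the foot of the plot, where the median is 0.

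Ribosomal protein genes and pseudogenes together took 2.11% to 2.86% of the reads in bulk dKO tumours and 2.26% to 3.07% in WT tumours, 1.93% to 2.27% in dKO T cells and 1.45% to 2.16% in WT T cells, and 1.28% to 1.51% in dKO CAFs and 1.44% to 1.78% in WT CAFs. In iDFs they took 2.18% to 2.22% in dKO and 1.88% to 1.94% in WT at 0 min, and 2.05% to 2.09% in dKO and 1.82% to 1.85% in WT at 30 min, so the genotypes were apart with dKO higher. Within these reads the pseudogenes held 7.09% ± 1.41 in dKO and 7.11% ± 1.30 in WT bulk tumours (SD, n = 6 each). The corresponding share was 5.12% ± 0.154 in dKO and 5.43% ± 0.128 in WT T cells, and 4.98% ± 0.252 in dKO and 5.96% ± 0.52 in WT CAFs (SD, n = 4 each). The 2 genotypes overlapped in bulk tumours in both shares, and the pseudogene share did not overlap between genotypes in CAFs, where the highest dKO library had 5.19% and the lowest WT library 5.48%. As a share of TPM it did overlap there, at 9.08% to 10.0% in dKO and 9.16% to 11% in WT CAFs. In iDFs the pseudogene share averaged 9.12% in dKO and 9.46% in WT at 0 min (n = 2 each).

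The clearest difference between genotypes was in the reads given to Rpl35a-ps2, a processed pseudogene of Rpl35a, which encodes a protein of the large subunit. The pseudogene is 333 bases long on chromosome 1 and matches the Rpl35a coding sequence without a gap and with 1 substitution, G156A, counted from the first base of the coding sequence with the base of the parent first. Position 156 is the last base of codon 52, and both letters encode the same residue. The stretch that holds every 75-base read able to separate this pair at that base is shown for both, 5′ to 3′, with position 156 in capitals. It lies at chr1:181242091-181242239 on the minus strand for the pseudogene and, spliced, within chr16:33057460-33058744 on the plus strand for Rpl35a (GRCm38).
Rpl35a-ps2: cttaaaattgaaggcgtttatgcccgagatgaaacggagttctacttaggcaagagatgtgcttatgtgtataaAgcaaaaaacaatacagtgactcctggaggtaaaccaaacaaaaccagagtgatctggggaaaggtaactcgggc
Rpl35a: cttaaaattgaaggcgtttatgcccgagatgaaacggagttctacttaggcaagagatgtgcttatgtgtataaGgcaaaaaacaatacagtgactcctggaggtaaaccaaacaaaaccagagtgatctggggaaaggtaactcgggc
Of the 259 windows of Rpl35a-ps2, 184 also occur in Rpl35a, and 24 occur in no other annotated gene.

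Rpl35a-ps2 was at 155, 142, 150.0, 178, 134 and 82.5 CPM in the 6 bulk dKO tumours, against 2.92, 1.84, 1.42, 0.847, 3.5 and 14.7 CPM in the 6 WT tumours. Its parent went the other way, with 36.7, 37.9, 40.9, 55.5, 32.2 and 116 CPM of Rpl35a in dKO tumours and 284, 207, 224, 193, 271 and 143 CPM in WT tumours. Neither gene overlapped between genotypes, which 0.669% of all genes tested did not, and in both of them dKO replicate 6 and WT replicate 6 were the tumours nearest to the other genotype. The dKO replicate 6 tumour also had the highest fibroblast marker sum, 51630 CPM against 15651 to 24346 CPM in the other dKO tumours and 12333 to 21692 CPM in WT tumours, and the part of this in the result was not tested. As a share of the pair, the pseudogene took 80.9%, 78.9%, 78.5%, 76.3%, 80.7% and 41.5% of the reads in dKO tumours and 1.02%, 0.881%, 0.63%, 0.438%, 1.27% and 9.30% in WT tumours. The lowest dKO tumour was above the highest WT tumour in each of the 3 batches, with 80.7% against 1.02%, 41.5% against 0.881% and 76.3% against 9.30%. The sum of both genes was 194 ± 22.8 CPM in dKO tumours and 225 ± 49.2 CPM in WT tumours (SD, n = 6 each), and these ranges overlapped.

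Rpl35a-ps2 rose by 6.03 ± 0.60 on the log2 scale (SE) in bulk dKO tumours, with an adjusted p of 0.00613 in edgeR. It was the 1 member called among the 35 named pseudogenes tested there, and none of the 78 coding genes was called, while 0.0442% of the 18097 genes tested were. Without WT replicate 3, WT replicate 4 or dKO replicate 5 its adjusted p in edgeR became 0.0608, 0.103 and 0.102, at log2 fold changes of 6.0, 5.59 and 6.47. The log2 difference of Rpl35a was -2.16 ± 0.39, which did not pass in edgeR (adjusted p = 0.149) and did in DESeq2 (adjusted p = 3.12e-06). At an unadjusted p under 0.05, 4 coding genes were lower and 0 higher in bulk dKO tumours, beside 7.52% of all genes in both directions. The log2 fold change was below 0 in 64 of the 78, and its median was -0.10 over them and 0.02 over all genes tested.

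The same opposite shift of copy and parent was measured in sorted CAFs. Rpl35a-ps2 was at 43.9, 45.9, 55.1 and 50.4 CPM in dKO CAFs, against 0.352, 0.482, 0.404 and 0.738 CPM in WT CAFs. Rpl35a was at 52.1, 53.9, 66.2 and 70.7 CPM in dKO CAFs, against 121, 115, 129 and 118 CPM in WT CAFs. The pseudogene thus held 45.8%, 46.0%, 45.4% and 41.6% of the pair in dKO CAFs and 0.291%, 0.416%, 0.312% and 0.621% in WT CAFs. In edgeR the pseudogene rose by 6.61 ± 0.16 (adjusted p = 4.54e-07) and the parent fell by 1.00 on the log2 scale (SE 0.08, adjusted p = 0.000451). Neither gene overlapped between genotypes, which held for 14.0% of all genes tested in CAFs. The pair together was at 110.0 ± 13.5 CPM in dKO CAFs and 121 ± 5.88 CPM in WT CAFs (SD, n = 4 each). Keratinocyte markers summed to 21.4 to 51.9 CPM in dKO CAFs and 95.6 to 109 CPM in WT CAFs, with 7 of 10 called lower, and melanocyte markers to 116 to 442 CPM in dKO and 472 to 679 CPM in WT CAFs. The fibroblast marker sum was at least 82786 CPM in each CAF library, and the part of the other cells in the CAF results was not tested.

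In T cells the share was raised in some dKO libraries, and in iDFs it was low in both genotypes. In dKO T cells Rpl35a-ps2 held 21.5%, 3.75%, 1.46% and 22.1% of the pair, against 3.06%, 1.85%, 4.25% and 2.00% in WT T cells. Replicates 1 and 4 of the dKO T cells were above all the WT libraries and replicates 2 and 3 were within or beside their range, and the log2 difference of 2.23 ± 0.82 did not pass (adjusted p = 0.38 in edgeR). In iDFs the share was at most 0.649% in dKO and at most 0.688% in WT libraries. The fitted difference at 0 min was 0.33 ± 1.51 on the log2 scale (adjusted p = 0.898 in edgeR).

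**Figure D2:**
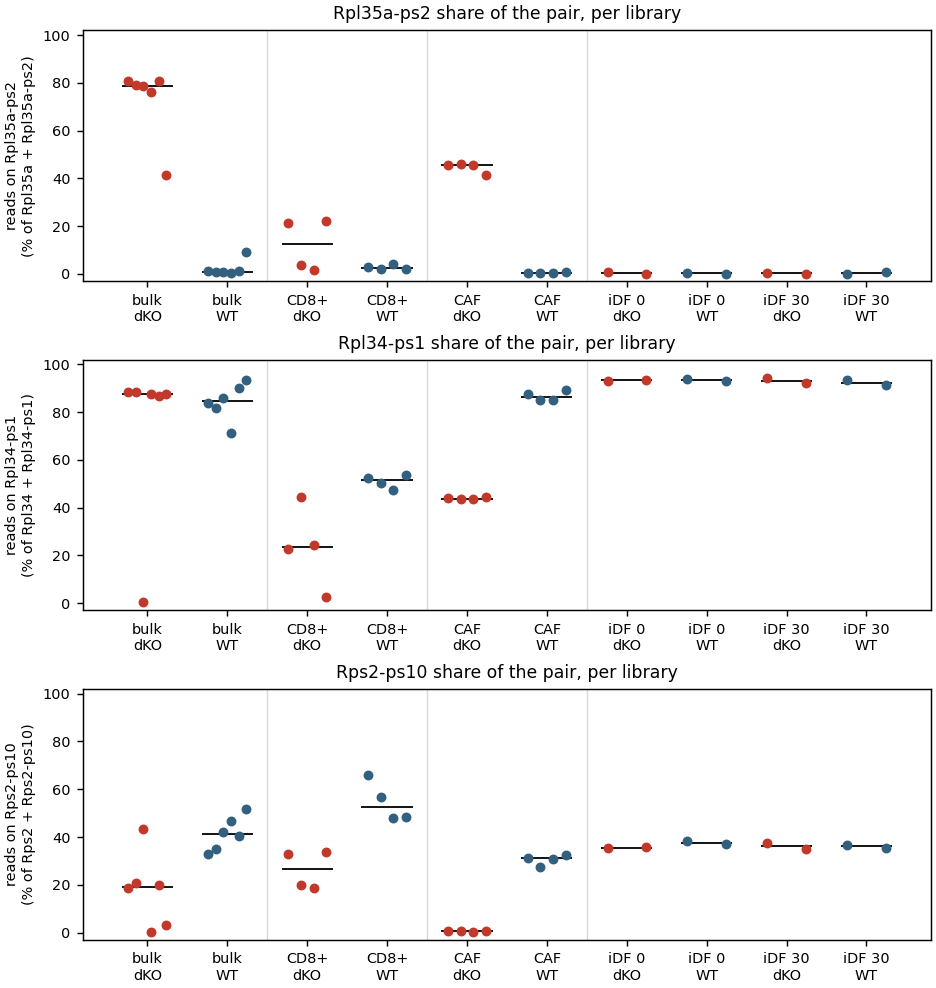
Percentage of the reads of a parent and pseudogene pair that were assigned to the pseudogene, in each library, for Rpl35a-ps2, Rpl34-ps1 and Rps2-ps10; points are libraries, red for dKO and blue for WT, and lines are group medians. In CAFs Rpl35a-ps2 took 41.6% to 46.0% in dKO and at most 0.621% in WT, while Rpl34-ps1 took 43.5% to 44.4% in dKO and 85.1% to 89.1% in WT.

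Rpl34-ps1, a copy of the gene of another large subunit protein, had the opposite direction in CAFs. It is 354 bases long on chromosome 6 and differs from the Rpl34 coding sequence by T132C and C318G, both in the last base of a codon (44 and 106) and both leaving the residue the same. The stretch around them is shown 5′ to 3′, with positions 132 and 318 in capitals. It lies at chr6:71124667-71124960 on the plus strand for the pseudogene and, spliced, within chr3:130726878-130729236 on the minus strand for Rpl34 (GRCm38).
Rpl34-ps1: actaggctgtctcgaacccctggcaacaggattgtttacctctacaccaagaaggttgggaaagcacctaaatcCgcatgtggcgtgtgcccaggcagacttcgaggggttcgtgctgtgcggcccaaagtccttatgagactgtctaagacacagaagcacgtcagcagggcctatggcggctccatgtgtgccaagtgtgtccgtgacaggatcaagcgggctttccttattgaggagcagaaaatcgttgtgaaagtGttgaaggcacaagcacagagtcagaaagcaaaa
Rpl34: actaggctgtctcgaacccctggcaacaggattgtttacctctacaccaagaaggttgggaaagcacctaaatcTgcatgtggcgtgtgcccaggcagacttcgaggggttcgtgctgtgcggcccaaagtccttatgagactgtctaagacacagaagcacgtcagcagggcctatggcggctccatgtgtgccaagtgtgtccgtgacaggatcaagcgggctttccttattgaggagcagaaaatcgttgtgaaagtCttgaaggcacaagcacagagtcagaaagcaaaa
Of its 280 windows, 168 also occur in Rpl34, and all 280 occur in at least 1 other annotated gene, so no single read of that length is particular to it.

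Rpl34-ps1 was at 38.7, 39.4, 45.7 and 45.2 CPM in dKO CAFs, against 90.6, 84.1, 98.0 and 90.9 CPM in WT CAFs, a fall of 1.11 on the log2 scale (SE 0.06, adjusted p = 5.2e-05 in edgeR). Rpl34 itself was at 49.3, 51.2, 59.5 and 56.7 CPM in dKO CAFs, against 13.0, 14.7, 17.1 and 11.1 CPM in WT CAFs, a rise of 1.95 ± 0.13 (adjusted p = 0.000186 in edgeR). The dKO and WT libraries did not overlap in either gene, while their sum was 96.4 ± 8.41 CPM in dKO and 105 ± 7.11 CPM in WT CAFs (SD, n = 4 each). In T cells Rpl34 had 135, 114, 154 and 223 CPM in dKO and 76.8, 75.6, 69.2 and 78.9 CPM in WT libraries, again without overlap, as in 7.05% of all genes tested there. Its log2 difference there of 1.03 ± 0.18 fell just short in edgeR (adjusted p = 0.0521) and passed in DESeq2 (adjusted p = 3.57e-05). The pseudogene took 22.6%, 44.4%, 24.2% and 2.61% of the pair in dKO T cells and 52.6%, 50.3%, 47.4% and 53.5% in WT T cells.

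Bulk tumours did not follow this pattern. All dKO tumours but replicate 3 had the pseudogene at 86.8% to 88.4% of the pair, within the 71.1% to 93.4% of the WT tumours. The dKO replicate 3 tumour stood apart at 0.383%, with 242 CPM on Rpl34 and 0.928 CPM on Rpl34-ps1, where the other dKO tumours had at most 27.9 CPM and at least 135 CPM. The log2 difference of the pseudogene was 0.04 ± 0.92 in bulk tumours (adjusted p = 0.993 in edgeR). In iDFs Rpl34-ps1 held 92.0% to 94.3% of the pair in dKO and 91.2% to 94.0% in WT libraries.

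Rps2, a small subunit protein near the entry of the messenger RNA channel, had the third pair of this kind. Rps2-ps10, a transcribed processed pseudogene with 6 substitutions over 934 aligned bases and 555 of 891 windows shared with Rps2, was nearly lost from dKO CAFs. It had 3.49, 3.8, 1.55 and 4.02 CPM in dKO CAFs, against 185, 141, 198 and 161 CPM in WT CAFs, and fell by 5.73 on the log2 scale (SE 0.29, adjusted p = 8.31e-05 in edgeR). Rps2-ps6, with 7 substitutions, was also lower, at 0.51, 0.609, 0.367 and 0.28 CPM in dKO CAFs and 2.46, 4.87, 4.67 and 5.24 CPM in WT CAFs (log2 fold change -3.27 ± 0.35, adjusted p = 0.00154 in edgeR). It passed the filter on low counts through the WT group, where it was higher, so its call in CAFs adds no support to these values. Rps2 was at 504, 612, 554 and 579 CPM in dKO CAFs and 404, 371, 445 and 337 CPM in WT CAFs, and its log2 difference of 0.53 ± 0.11 passed the adjusted p (0.0232 in edgeR) but not the fold threshold. The sum of Rps2 and Rps2-ps10 was 565 ± 45.6 CPM in dKO CAFs and 561 ± 68.1 CPM in WT CAFs (SD, n = 4 each).

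Elsewhere the Rps2 pair varied more between libraries. The pseudogene held 18.6%, 20.7%, 43.2%, 0.173%, 19.9% and 3.17% of it in bulk dKO tumours, against 33.0% to 51.8% in WT tumours, and dKO replicate 3 was inside the WT range. Within batch 1 the dKO tumours had 18.6% and 19.9% against 33.0% and 46.9% in WT, and within batch 2 20.7% and 3.17% against 35.1% and 41.9%, whereas in batch 3 the 43.2% and 0.173% of dKO tumours overlapped the 40.6% and 51.8% of WT tumours. Its log2 difference in bulk tumours was -1.56 ± 0.91 (adjusted p = 0.73 in edgeR). In T cells the share was 18.8% to 33.8% in dKO and 48.1% to 65.9% in WT libraries. There Rps2 was the gene of the pair without overlap, as were 7.05% of all genes tested in T cells. It had 261, 337, 329 and 168 CPM in dKO against 28.3, 64.0, 103 and 111 CPM in WT (log2 difference 1.95 ± 0.34, adjusted p = 0.0522 in edgeR and 3.41e-07 in DESeq2). The sum of Rps2 and Rps2-ps10 was then higher as well, at 368 ± 77.0 CPM in dKO T cells and 161 ± 59.5 CPM in WT T cells (SD, n = 4 each) without overlap. With its named pseudogenes added, Rps2 had a log2 difference of 1.24 ± 0.23 that did not pass (adjusted p = 0.0695 in edgeR). Copies under other symbols were not added. Rps2-ps10 itself overlapped in T cells, at 76.4 to 129 CPM in dKO and 54.8 to 104 CPM in WT. In iDFs its share was 35.0% to 37.5% in dKO and 35.6% to 38.2% in WT libraries.

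The contrasts of the genotype effect between cell types were fitted after these values had been seen. The effect on Rps2-ps10 in CAFs was lower than in iDFs at 0 min by -5.79 ± 1.22 on the log2 scale (adjusted p = 0.0172 in edgeR), where 0.53% of 22818 genes passed. Between T cells and CAFs, where 3.81% passed, the T cell effect was -4.50 ± 1.12 for Rpl35a-ps2 (adjusted p = 0.0234), 5.84 ± 0.98 for Rps2-ps10 (adjusted p = 0.000961) and 4.04 ± 1.14 for Rps2-ps6 (adjusted p = 0.0421) relative to the CAF effect in edgeR. These were the 4 of 630 differences computed for members that passed, and none passed in the contrast of bulk tumours with iDFs (0.355% of all genes). The joint fit of the cell types had sex but not batch as a covariate, unlike the fit of bulk tumours alone.

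Among the 77 coding genes and 29 named pseudogenes tested in CAFs, 1 coding gene and 1 pseudogene were called higher and 1 coding gene and 3 pseudogenes lower, beside 5.48% of the 15786 genes tested (1.45% higher and 4.03% lower). These were Rpl34 and Rpl35a-ps2 higher, and Rpl35a, Rpl34-ps1, Rps2-ps10 and Rps2-ps6 lower. When the reads of each named pseudogene were added to its parent, 0 members were called in CAFs or bulk tumours. The log2 difference of Rpl35a with its named pseudogenes was then -0.15 in CAFs (adjusted p = 0.211 in edgeR), that of Rpl34 -0.13 (adjusted p = 0.25) and that of Rps2 0.00 (adjusted p = 0.994). The log2 fold change was below 0 in 67 of the 77 coding genes in CAFs, with a median of -0.09 over them and 0.00 over all genes. In T cells 0 of 77 coding genes and 0 of 26 pseudogenes were called by edgeR, beside 0.495% of 14944 genes. At an unadjusted p under 0.05, 3 coding genes were higher and 1 lower in dKO T cells, beside 10.2% of all genes in both directions. DESeq2 called 2 members, Rps2 and Rpl34, but it also called more of all genes than edgeR did, as given in the closing section. These 2 calls are therefore not a result about the members as a set.

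A stricter description of an on and off pattern asked that genotypes not overlap, that the higher genotype have at least 0.5 CPM in each library, and that its lowest library be at least 2 times the highest of the other. Of the named pseudogenes, Rpl35a-ps2 met this in bulk tumours, where 0.0663% of all genes did, Rpl35a-ps2, Rps2-ps10 and Rps2-ps6 in CAFs (0.988% of all genes), and none in T cells (0.81%). In iDFs it was met by Rpl10-ps6 at 0 min (5.15% of all genes), with a dKO library close to the limit of 0.5 CPM, and by Rpl31-ps12 at 30 min (5.12%). Rpl31-ps12 passed the filter on low counts through the 26 reads of the dKO group at 30 min alone, so meeting the rule adds no support there. The same holds for Rps2-ps6 in CAFs, which passed that filter through the WT group.

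Some exact copies, chosen after their values were seen, differed between libraries of both genotypes. Rps6-ps4 equals Rps6, a small subunit protein that is phosphorylated downstream of mTOR, over all 750 bases, so its 676 windows are all shared. It was at 0 in the 4 tumours of batch 3 and in the T cell libraries of both genotypes, at 69.7 to 175 CPM in the 8 tumours of batches 1 and 2, and held 6.10% to 20.2% of the pair in dKO CAFs and 7.61% to 21.4% in WT CAFs. Rpl10-ps3, without a substitution over 740 aligned bases and with 666 of 694 windows shared with Rpl10, did the reverse. It was at 0 in batches 1 and 2, at 244 to 522 CPM in batch 3, and held 54.3% to 59.7% of the pair in dKO T cells and 51.2% to 59.1% in WT T cells, whereas it was at 0 in the CAF libraries.

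The pair sums were also compared between batches. Rps6 and Rps6-ps4 together were at 474 ± 43.1 CPM in batch 3, 589 ± 131 CPM in batch 1 and 502 ± 34.7 CPM in batch 2 (SD, n = 4 tumours each), and overlapped. Rpl10 and Rpl10-ps3 together were at 641 to 733 CPM in batch 3, above the 482 to 626 CPM of batch 1 and the 458 to 570.0 CPM of batch 2. Batch 3, set apart after the values were seen, was separate from the other 8 tumours in 4 of 272 named pseudogenes (1.47%), Rpl10-ps3, Rps6-ps4, Rpl17-ps8 and Rpl19-ps10. This held for 0 of 79 coding genes and 23 of the 18097 genes tested (0.127%). The 272 and 79 are all annotated members, of which 35 named pseudogenes passed the filter on low counts in bulk tumours, so these percentages have unlike bases. Among pseudogenes that reached 10 CPM, the lowest tumour was under a 20th of the highest in 11 of 24 in bulk dKO tumours and in 9 of 25 in WT tumours, and in 0 of the coding genes of any group. Rps12-ps3, an exact copy of Rps12 also chosen after its values were seen, shows how 1 library can carry a difference. Its 837 reads in WT tumours all came from replicate 1, against 0 in the dKO tumours, and it held between 1010 and 2283 reads in each CAF library of either genotype.

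**Figure D3:**
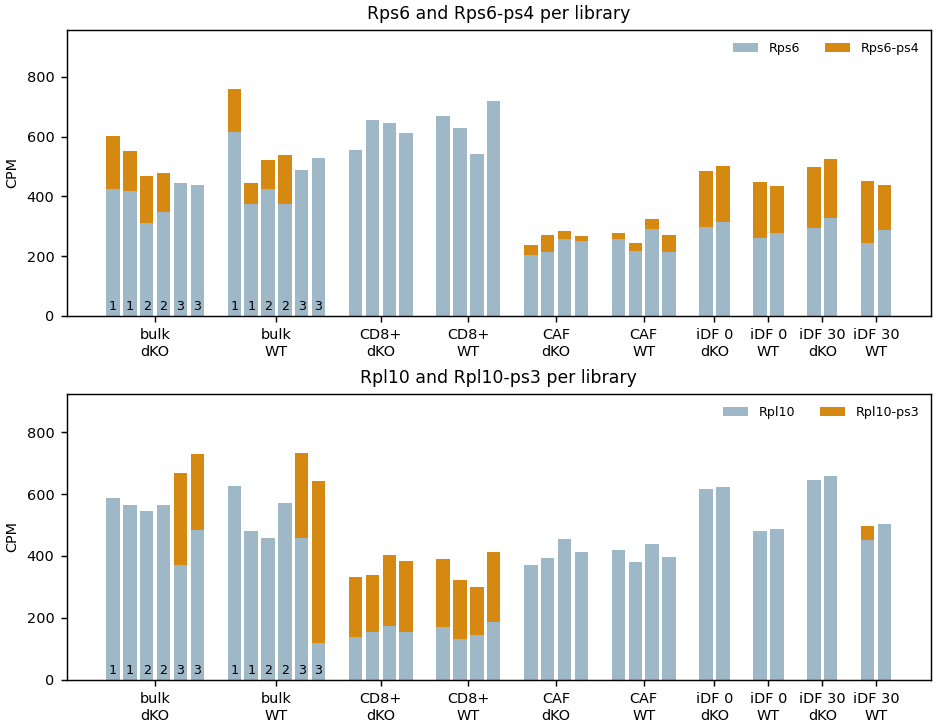
CPM of Rps6 with Rps6-ps4 (top) and of Rpl10 with Rpl10-ps3 (bottom) in each library, stacked; dKO groups stand left of WT groups, and digits at the foot of the bulk bars give the library batch. Rps6-ps4 was at 0 and Rpl10-ps3 at 244 to 522 CPM in the 4 tumours of batch 3, in both genotypes.

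Most of the coding ribosomal protein genes tested rose, by small amounts, in dKO iDFs. At 0 min 54 of the 77 tested had an adjusted p under 0.05 in edgeR and were higher, and 2 were lower, where 16.2% of all 15047 genes passed as higher and 15.2% as lower. At 30 min 54 were higher and 1 was lower, beside 16.8% and 15% of all genes. The median log2 fold change of the coding genes was 0.26 at 0 min and 0.27 at 30 min, while that of all genes was 0.00 and -0.01. No coding gene was called higher at the fold threshold and 1 was called lower at each time, where 3.93% of all genes were called higher and 5.11% lower at 0 min, and 3.88% higher and 5.08% lower at 30 min. Both times share no library, but they come from the same lines.

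The coding gene with the largest rise at 0 min was Rpl15, a large subunit protein. It was at 217 and 220.0 CPM in dKO iDFs, against 147 and 138 CPM in WT iDFs at 0 min (log2 fold change 0.62 ± 0.05, adjusted p = 4.6e-05 in edgeR), and at 210.0 and 226 CPM against 141 and 151 CPM at 30 min. Rps7, a small subunit protein and the largest rise at 30 min, was at 6.42 and 5.67 CPM in dKO and 4.18 and 3.69 CPM in WT iDFs (log2 fold change 0.62 ± 0.18, adjusted p = 0.0259 in edgeR). It did not pass in DESeq2 (adjusted p = 0.121), and with an offset for transcript length its log2 fold change was 0.36 (adjusted p = 0.312 in edgeR). Others that rose, chosen after their values were seen, were Rps24 (0.59 ± 0.04 at 0 min), Rpl37 (0.57 ± 0.06) and Rpl3 (0.50 ± 0.05), the last a protein at the peptidyl transferase centre. Rpl39, which lines the exit tunnel, rose by 0.34 ± 0.05 and Rps4x by 0.29 ± 0.04. Those that did not pass at 0 min included Rpl35a (-0.10 ± 0.05) and Rpl34 (0.24 ± 0.22). Rpl24, also chosen after its values were seen, was lower, at -0.15 ± 0.05 (adjusted p = 0.0371 in edgeR).

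Other genes of the translation machinery were read beside the 16.2% of all genes that passed as higher at 0 min and the 16.8% at 30 min. The 8 ribosomal proteins that the symbol rule leaves out, such as Rplp0 and Rpsa, were all higher at an adjusted p under 0.05 in edgeR at both times, with a median log2 fold change of 0.24 at 0 min. Of 16 translation factors and related genes whose messenger RNAs start with the same pyrimidine tract, 14 were higher at each time, with a median of 0.33 at 0 min. Of 37 ribosome biogenesis genes 8 were higher and 2 lower at 0 min, with a median of 0.07. Of 20 mitochondrial ribosomal proteins 1 was higher and 2 were lower, with a median of -0.05. The 8 markers of cycling cells summed to 1407 and 1207 CPM in dKO iDFs and 1738 and 1773 CPM in WT iDFs at 0 min, with 6 of 8 lower at an adjusted p under 0.05 in edgeR, and their part in the result was not tested. Around the RefSeq start sites of the coding members (GRCm38), a run of at least 5 C or T bases on the coding strand that covers the first transcribed base was found in 19 of 72 promoters (26.4%) of 60 genes, and in 10.1% of all 32851 promoters, and this match says nothing of translation here.

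**Figure D4:**
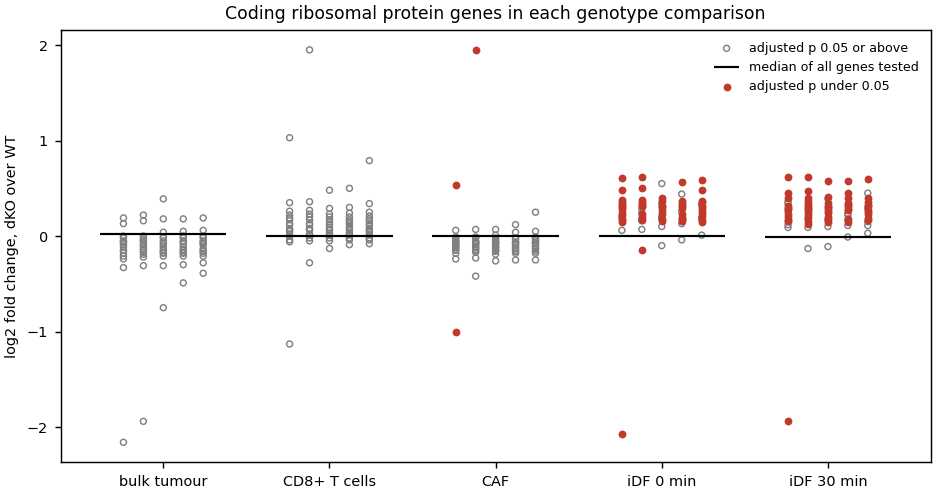
Log2 fold change (dKO over WT) of each coding ribosomal protein gene tested in the 5 genotype comparisons; filled red points had an adjusted p under 0.05 in edgeR at any fold, open points did not, and black lines give the median of all genes tested. In iDFs most points lie above the line, with 54 of 77 past 0.05 and higher at both times, and Rpl39l lies lowest at -2.07 and -1.94.

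Among the paralogues that share no window with their main gene, Rpl39l was lower in dKO iDFs. Rpl39l (chr16:10170226-10174911, plus strand, GRCm38), a tunnel protein known from the testis, was the coding gene called lower in dKO iDFs, with 2.17 and 1.98 CPM in dKO and 8.58 and 8.91 CPM in WT at 0 min. It was at 2.43 and 2.16 CPM in dKO and 9.05 and 8.55 CPM in WT at 30 min. The fall was 2.07 on the log2 scale at 0 min (SE 0.14, adjusted p = 1.1e-05 in edgeR) and 1.94 at 30 min (SE 0.14, adjusted p = 1.71e-05). No 75-base window of Rpl39l occurs in Rpl39, from which it differs at 26 of 171 aligned bases, so no whole read of that length fits both. In the other cell types Rpl39l was not called. It was at 13.5, 13.3, 14 and 13.8 CPM in dKO CAFs, against 12.9, 9.45, 12.1 and 11.4 CPM in WT CAFs (log2 difference 0.25 ± 0.10, adjusted p = 0.179 in edgeR), at 3.10 to 8.06 CPM in bulk dKO tumours and 2.91 to 5.25 CPM in WT tumours, and at 0.553 CPM or less in T cells.

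Rps4l, a transcribed retrocopy related to Rps4x with no window in common with it, was lower in dKO iDFs as well. It had 9.62 and 8.64 CPM in dKO iDFs and 20.9 and 19.8 CPM in WT iDFs at 0 min, and fell by 1.15 on the log2 scale (SE 0.09, adjusted p = 3.09e-05 in edgeR). At 30 min it was at 10.5 and 9.99 CPM in dKO and 19.4 and 17.7 CPM in WT (log2 fold change -0.86 ± 0.09, adjusted p = 0.000192 in edgeR). In CAFs the levels were 12.8, 11, 14.4 and 11.4 CPM in dKO and 16.4, 16.4, 16.8 and 14.3 CPM in WT, a log2 difference of -0.37 ± 0.11 that did not pass (adjusted p = 0.072 in edgeR). Rps4l (chr6:148354656-148355598, plus strand, GRCm38) overlaps Tmtc1 on the opposite strand. Rpl22l1, a paralogue of the large subunit gene Rpl22, rose in dKO iDFs by 0.40 ± 0.10 at 0 min (adjusted p = 0.0126 in edgeR), and Rpl22 by 0.24 ± 0.07 (adjusted p = 0.0368). Rps27l rose by 0.20 ± 0.06 at 0 min (adjusted p = 0.0314 in edgeR) and did not pass at 30 min (0.09 ± 0.06, adjusted p = 0.292), while Rpl7l1 (0.06 ± 0.05, adjusted p = 0.402) did not pass.

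Rpl3l replaces Rpl3 in striated muscle. It was at 3.05, 4.38, 4.49, 1.65, 1.06 and 4.65 CPM in bulk dKO tumours, against 7.02, 3.61, 18.7, 4.99, 9.64 and 11.2 CPM in WT tumours, which overlapped. Its log2 difference of -1.94 ± 0.47 did not pass in edgeR (adjusted p = 0.35) and did in DESeq2 (adjusted p = 0.00398). Skeletal muscle markers summed to 595 to 1905 CPM in dKO tumours and to 1062 to 5982 CPM in WT tumours, with WT replicate 3 highest in both the markers and Rpl3l, and their part in the difference was not tested. In bulk samples, fewer cells of a type and less RNA per cell cannot be told apart. Rpl3l was at 0.176 CPM or less in CAFs and at 0.0391 CPM or less in iDFs.

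**Figure D5:**
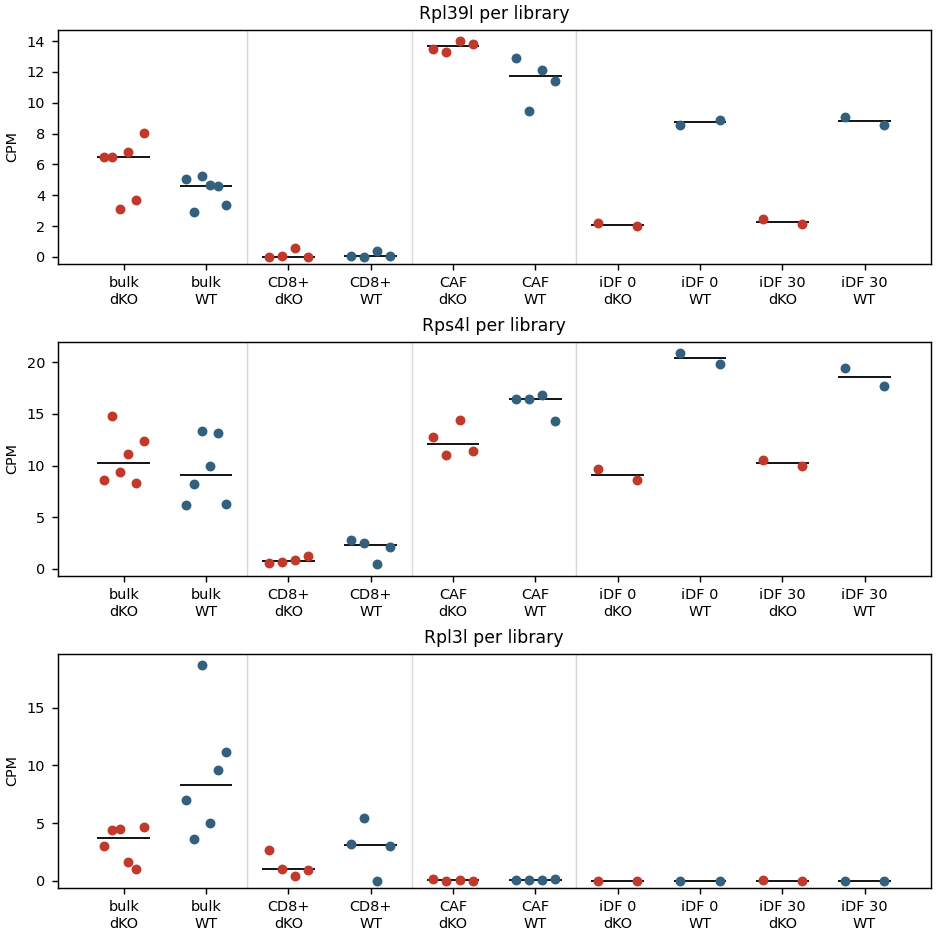
CPM of Rpl39l, Rps4l and Rpl3l in each library; points are libraries, red for dKO and blue for WT, and lines are group medians. Rpl39l lies at 1.98 to 2.43 CPM in the 4 dKO iDF libraries and at 8.55 to 9.05 CPM in the 4 WT iDF libraries, and its genotypes overlap in bulk tumours.

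Among the named pseudogenes in iDFs, 1 was called higher and 1 lower of 42 tested at 0 min (4.76% in all), and 2 higher and 1 lower at 30 min (7.14%), each below the 9.04% and 8.96% of all genes called at these times. At an adjusted p under 0.05 at any fold in edgeR, 5 were higher and 1 lower at 0 min, and 8 higher and 1 lower at 30 min. The higher ones were 11.9% of those tested at 0 min and 19.0% at 30 min, near or below the 16.2% and 16.8% of all genes. Rpl34-ps1 was among them, with 119 and 120.0 CPM in dKO and 106 and 105 CPM in WT at 0 min (log2 fold change 0.18 ± 0.04, adjusted p = 0.00896 in edgeR). Rpl15-ps2, with 8 substitutions and 267 of its 539 windows shared with Rpl15, was at 15.9 and 20.5 CPM in dKO and 11.5 and 9.96 CPM in WT at 0 min, a rise of 0.76 ± 0.19 (adjusted p = 0.0177 in edgeR) beside that of Rpl15. It lost the call at 0 min without dKO replicate 2 (log2 fold change 0.56) and without either WT replicate. Rps19-ps3 was lower at both times, with 1.15 and 0.972 CPM in dKO and 1.94 and 1.82 CPM in WT at 0 min (log2 fold change -0.82 ± 0.27, adjusted p = 0.0465 in edgeR), and did not pass in DESeq2 (adjusted p = 0.299). Its call at 0 min was also lost without any 1 of the 4 libraries of that time (adjusted p of 0.0942 to 0.177 in edgeR), without the count filter (0.0623) and with length offsets (0.0927). The parent, Rps19, had 210.0 and 201 CPM in dKO and 169 and 163 CPM in WT iDFs at 0 min. Rpl10-ps6 was at 0.51 and 1.15 CPM in dKO and 0.187 and 0.0844 CPM in WT at 0 min, with overlap at 30 min and no call.

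Rpl31-ps12 appeared in a single group of iDFs. It had 14 and 12 reads in dKO iDFs at 30 min, against 0 and 0 reads in WT iDFs at 30 min, and 0 in all iDF libraries at 0 min. A count of 0 over the WT group allows up to 3 reads, and against that limit the dKO reads stood at 7.72-fold or more. This bound covers counting error alone and not how reads from shared windows were placed, so it does not establish a difference in level. The gene passed the filter on low counts through the 26 reads of that group alone, so its call at 30 min, and the call for serum in dKO iDFs, add no support to these counts. Elsewhere it had 7 reads in 1 dKO CAF library and 0 in the rest. The pseudogene shares 166 of its 301 windows with Rpl31 and overlaps Spag6l on the same strand (chr16:16819749-16820123, minus strand, GRCm38).

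No coding gene was called for 30 min of serum. Of the 77 tested, 0 were called in dKO iDFs, beside 3.28% of all genes, and 0 in WT iDFs, beside 1.95%, and 0 of them had an unadjusted p under 0.05 in edgeR in either genotype, where 23.8% of all genes did in dKO and 19.4% in WT iDFs. DESeq2 called 0 members in either genotype. The median log2 difference of 30 min over 0 min was 0.03 in dKO and 0.02 in WT iDFs, and no member passed the test of a difference in serum response between genotypes, where 0.0133% of all genes did.

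Between WT cell types the coding genes differed most in T cells. By the paper's methods, library kits differed between T cells, tumours and CAFs, and RNA input differed between CAFs and iDFs. Cell type, kit and input therefore cannot be told apart in any of these contrasts. Of the 78 coding genes tested, 17 were called higher and 24 lower in CD8+ T cells than in CAFs, where 32.6% of all 21415 genes were called higher and 37.6% lower. The gene with the largest rise in T cells was Rps7, with a median of 197 CPM in WT T cells and 7.27 CPM in WT CAFs, a log2 fold change of 4.39. Over both genotypes Rps7 had a median of 32.8 TPM in CAFs, where the median over the coding genes was 740 TPM, and 342 TPM in T cells. Why it was so low in CAFs was not tested. Rpl39l had the largest fall, of 6.53, with medians of 0.0659 CPM in WT T cells and 11.7 CPM in WT CAFs. CAFs differed from bulk tumours in 2 coding genes called higher and 5 lower (14.8% and 21.7% of all genes), the lowest of them the muscle gene Rpl3l and the highest Rpl39l. In WT iDFs 0 coding genes were called higher and 8 lower than in CAFs (12.8% and 20.2% of all genes). Named pseudogenes were called in 24 cases higher and 21 lower of 73 in T cells against CAFs, and in 7 higher and 3 lower in iDFs against CAFs.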

How the data were processed

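RNA was sequenced as 75-base single-end reads from 36 samples, and the authors quantified each library with Salmon 1.2.1 against Gencode transcripts of GRCm38.p6. The deposited files give estimated counts (NumReads) and TPM per transcript, so a read that fits several genes had already been divided among them before deposit. The estimated counts of the transcripts of each gene were added up by Gencode release 21 on GRCm38, an earlier annotation than that of the authors, which named 99.15% of the 140992 transcripts. Reads without a gene were 0.25% to 0.52% of a library and were left out. The sums were rounded for the count tests, and TPM was summed per gene without change.

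Genes passing filterByExpr (minimum count 10, minimum total 15) were tested with edgeR 4.0.16 (quasi-likelihood, robust, TMM) in R 4.3.3, with Benjamini-Hochberg adjustment over all genes tested. Library batch and sex were covariates for bulk tumours and sex for T cells and CAFs. The 4 iDF groups were fitted together, as were the 4 WT groups. Effects were compared between cell types in 1 joint fit of all libraries, with sex as its only covariate. A call needed an adjusted p under 0.05 and a log2 fold change beyond 0.75 in either direction (1.68-fold). Residual degrees of freedom were 7 for bulk tumours, 5 for T cells, 5 for CAFs and 4 for iDFs. Count tests were checked on simulated counts. Pseudogenes were aligned to their parent with Biopython 1.88.

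Members named were those called in a genotype comparison, the coding gene with the highest and with the lowest log2 fold change in each, the coding paralogues and Rps4l with their partners, the 5 coding genes and 5 pseudogenes with the highest median TPM, the pseudogenes with the largest differences without overlap (2 in each direction), those meeting the on and off rule, and the parents of these; any other is said to be chosen after its values were seen. Some items that this rule or the labels name are not reported here. Members and lists were chosen with earlier results of these data known. Alternatives were DESeq2 1.42.0, other filters, covariates and length offsets, pseudogene counts added to the parent, protein-coding genes alone, a replicate block in iDFs, and each library left out. Depth was 17526681 to 85432438 reads in genes per library, and the limit of 3 reads used against a count of 0 covers counting error alone.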

Additional observations from a re-analysis of the deposited data

Results flagged for a closer look

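Among 96 groups of 4 to 6 samples examined, 12 had a highest or lowest sample whose gap to the next took up more of the range than Dixon's limit allows. That limit is set for 1 in 20 independent groups of normal values. Many of these groups hold the same libraries and pairs, and some hold values near 0, so the 12 cannot be set against chance. The fraction of the range is given for each. For the share of the pair on Rpl35a-ps2 it was 0.883 for dKO tumour replicate 6 (41.5%, next 76.3%), 0.906 for WT tumour replicate 6 (9.3%, next 1.27%) and 0.864 for dKO CAF replicate 4 (41.6%, next 45.4%). The same tumours were apart in CPM, with 0.722 for Rpl35a in dKO replicate 6 (116 CPM, next 55.5 CPM) and 0.808 for Rpl35a-ps2 in WT replicate 6 (14.7 CPM, next 3.5 CPM). dKO tumour replicate 3 was apart in the Rpl34 pair, with 0.982 for the share on Rpl34-ps1 (0.383%, next 86.8%), 0.955 for Rpl34 (242 CPM, next 27.9 CPM) and 0.694 for Rpl34-ps1 (0.928 CPM, next 135 CPM).

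The remaining single samples were dKO CAF replicate 3 for Rpl31-ps12 (1.0, at 0.286 CPM where the other dKO CAFs had 0), dKO T cell replicate 3 for Rpl39l (0.936, at 0.553 CPM, next 0.0356 CPM), WT CAF replicate 4 for Rps4l (0.84, at 14.3 CPM, next 16.4 CPM) and WT T cell replicate 3 for the percentage of reads in ribosomal protein genes and pseudogenes (0.887, at 1.45%, next 2.08%).

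The genotype effect differed between cell types for 3 pseudogenes of 630 differences computed, by the joint fit in edgeR. It was lower in CAFs than in iDFs at 0 min for Rps2-ps10 (-5.79 ± 1.22 on the log2 scale). Relative to CAFs, the effect in T cells was -4.5 ± 1.12 for Rpl35a-ps2, 5.84 ± 0.98 for Rps2-ps10 and 4.04 ± 1.14 for Rps2-ps6. The T cell libraries were made with another kit, so cell type and kit cannot be told apart here.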

How the results depend on the processing

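Outside the libraries left out, 63 of 91 counts and shares stayed within 1.5 times or 1 SD of the reported value. Of 332 values of single members, 313 kept their side of the threshold and their direction. A change of sign by no more than 1 SE counted as kept where neither value was called. With the counts of named pseudogenes added to the parent, members called were 0 in bulk tumours (1 as reported), 0 in CAFs (6), 2 in iDFs at 0 min (4) and 2 at 30 min (5). Rpl34 in CAFs turned to -0.13 on the log2 scale, since the reads of its named pseudogenes were then counted in it. With protein-coding genes alone they were 0, 2, 1 and 1, because most pseudogenes were no longer tested. DESeq2 called 3 members in bulk tumours, 2 in T cells (0 in edgeR), 0 for serum in dKO iDFs (1) and 30 between WT iDFs and CAFs (18), with 190 of all genes called in bulk tumours against 8 in edgeR and 449 against 74 in T cells. Without a sex term 2 members were called in bulk tumours, with 21 of all genes, and 386 in place of 865 of all genes in CAFs. Without the count filter 1 member was called in T cells, and with the 2 groups compared alone 7 in iDFs at 0 min. Where no cause is given, the cause was not tested. Here and below, a count of members without a count over all genes describes the setting and is not a result about the members.

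Same-numbered iDF samples had correlated deviations of 0.018 to 0.132, so the numbers were not taken to pair them. With a replicate block, 4 members were called at 0 min, 6 at 30 min, 0 for serum in WT iDFs and 2 for serum in dKO iDFs, and 63 and 64 coding genes were higher. The 2-fold margin of the on and off rule gave 1 pseudogene at 0 min, against 0 with 4 times and 2 on TPM. As a share of TPM, pseudogenes held 12.3% in dKO and 10.2% in WT tumours, 6.84% and 7.59% in T cells, 9.51% and 9.83% in CAFs, 12.9% and 13.4% in iDFs at 0 min and 13.2% and 13.6% at 30 min. Why these differ from the shares of reads was not tested.

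With 1 library left out, members called ranged over 0 to 2 in bulk tumours, 6 to 7 in CAFs, 3 to 7 in iDFs at 0 min, 2 to 7 at 30 min, 0 to 1 for serum in WT, 0 to 1 for serum in dKO and 7 to 23 between WT iDFs and CAFs. A group reduced to 1 library was assumed to vary like the others. Coding genes higher in iDFs numbered 36 to 58 at 0 min and 38 to 62 at 30 min. Depth limits the rarely counted pseudogenes most, and reads shared by identical copies cannot be told apart at any depth.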
